A study of Mus musculus with 6 samples.

Results

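Solute carriers are membrane proteins that move small molecules across cell membranes. In the luminal epithelium of the mouse uterus, laser-captured on pregnancy day 4, 203 expressed genes with a solute carrier symbol were compared between samples with and without Foxo1. They include 5 genes that are not carriers themselves. In the Foxo1-deleted samples 56 were higher and 90 lower at a limma adjusted p under 0.05, where 22.2% and 34.2% of all tested genes were called in those directions. Zinc, copper and magnesium carriers held the largest rise (Slc39a2) together with some of the larger falls (Slc39a8). Of the 3 carriers of lactate and other carboxylates described here, 0 rose and 3 fell, 2 of them with a mean of 1 FPKM or more in Foxo1ff alone. Each class of 4 or more genes moved in both directions. The genes were chosen by symbol and by measured level: they were the rows of the deposited table whose symbol starts with Slc and a digit and whose mean over the 6 samples was at least 1 FPKM (fragments per kilobase of gene, scaled to library depth), 203 of 24964 genes in the table. Left out by the same rule were Slc2a1, Slc2a3, Slc4a4, Slc8a1, Slc12a2, Slc13a5, Slc16a3, Slc26a4 and Slc26a6. Of 376 such symbols 165 lay under 1 FPKM, 56 of them at 0 in every sample.

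Solute carriers use gradients of sodium, protons or the solute itself in place of ATP. Some sit in the cell surface and set what the cell takes up or gives off, and others sit in mitochondria, lysosomes, the endoplasmic reticulum or the Golgi. In the uterus the luminal epithelium controls the ions, amino acids, sugars and metals of the fluid in which the embryo floats before it attaches. FOXO1 is a forkhead transcription factor that acts downstream of insulin signalling.

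Both groups were mice with floxed Foxo1 alleles, written Foxo1f/f, mated with stud males and dissected on pregnancy day 4. The labels give housing with female littermates to 8 weeks of age and no other age. The 3 Foxo1ff samples came from females without Cre. The 3 Foxo1dd samples came from Pgrcre/+Foxo1f/f females, which carry Cre at the progesterone receptor gene Pgr, so that recombination is expected in every cell type that has expressed the receptor and not in the epithelium alone. Effects of the Cre allele at Pgr and of Foxo1 loss therefore cannot be told apart. The labels call the samples bioreplicates but do not give the animals behind each, nor whether a sample is a pool. A p-value therefore reflects only how far these samples spread.

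Foxo1 was at 160, 119 and 111 FPKM in the Foxo1ff samples against 1.72, 0.942 and 1.22 in Foxo1dd, which gave a log2 change of -5.83 ± 0.19 (SE, adjusted p = 1.21e-07). Pgr was at 2.44, 1.64 and 2.02 FPKM in the Foxo1ff samples against 36.2, 29.9 and 28.3 in Foxo1dd, which gave a log2 change of 3.42 ± 0.16 (SE, adjusted p = 7.45e-07). Both were apart between the groups, with Foxo1 low in every sample labelled as deleted. Summed FPKM was 613186 to 667499 in Foxo1ff and 552190 to 564628 in Foxo1dd. Foxo1dd 2 listed the fewest genes above 0, 13995 against 15474 to 16062 in the other 5 samples. A single read corresponded to about 0.00509 to 0.00678 FPKM for a gene of 2 kb, as read from the steps of short RNA genes, with the least certain value in Foxo1dd 2 (26 genes). Epithelial markers were present, 13 of 13 above the minimum, with a summed level of 3472 to 4644 FPKM in Foxo1ff and 4704 to 5705 in Foxo1dd. Of these, 5 were higher and 3 lower, Epcam and Cdh1 among the latter. Glandular markers, of which 4 of 8 reached the minimum, summed to 51.8 to 209.8 FPKM in Foxo1ff, highest in Foxo1ff 3, and 1.04 to 6.83 in Foxo1dd. Of those 4, 1 rose and 3 fell, while the mean of the gland factor Foxa2 was under the minimum and Ttr was at 0 throughout. Leukocyte markers summed to 40.2 to 86.6 and 71.7 to 92.1 FPKM, with 2 higher and 5 lower of 7 tested. Most of the Foxo1dd sum was Laptm5, at 65.5, 53.2 and 70.7 FPKM there against 2.73, 3.6 and 5.78 in Foxo1ff. Cd68 also rose, while Ptprc, C1qa, C1qb, Lyz2 and Csf1r fell. Stromal markers summed to 15.7 to 21.0 and 16.8 to 28.4 FPKM, and 5 of 7 erythroid genes were at 0 in every sample. The part of glandular or leukocyte RNA in the results on solute carriers was not tested, and fewer cells of a type cannot be told apart from less RNA per cell.

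Of the 203 genes, 146 (71.9%) were called at a limma adjusted p under 0.05, against 56.4% of the 11427 genes tested. Higher calls numbered 56, with 22.2% of tested genes higher, and lower calls 90, with 34.2% of tested genes lower. All 3 Foxo1dd samples lay above the Foxo1ff range for 60 genes (25.3% of tested genes) and below it for 100 (39.0%). Rises of at least 2 log2 were seen in 16 genes (3.98% of tested genes) and falls of that size in 23 (5.06%). The median log2 change was -0.33, against -0.15 for all tested genes. Median-of-ratios scaling moved the latter by 0.11, to -0.03, so small falls are to be read against it. These counts describe the set and are not evidence of their own, since the minimum of 1 FPKM was reached through Foxo1ff alone by 18 genes (0 higher, 16 lower) and through Foxo1dd alone by 7 (6 higher, 0 lower). The other 178 reached it in both groups, with 50 higher and 74 lower. The lowest genes inside the limit were Slc4a8 and Slc4a11, with means of 1.00 and 1.03 FPKM, and the nearest outside it were Slc6a20a and Slc15a3, with 0.860 and 0.859. Among the genes left out by name, 3 were higher and 5 lower.

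**Figure D1:**
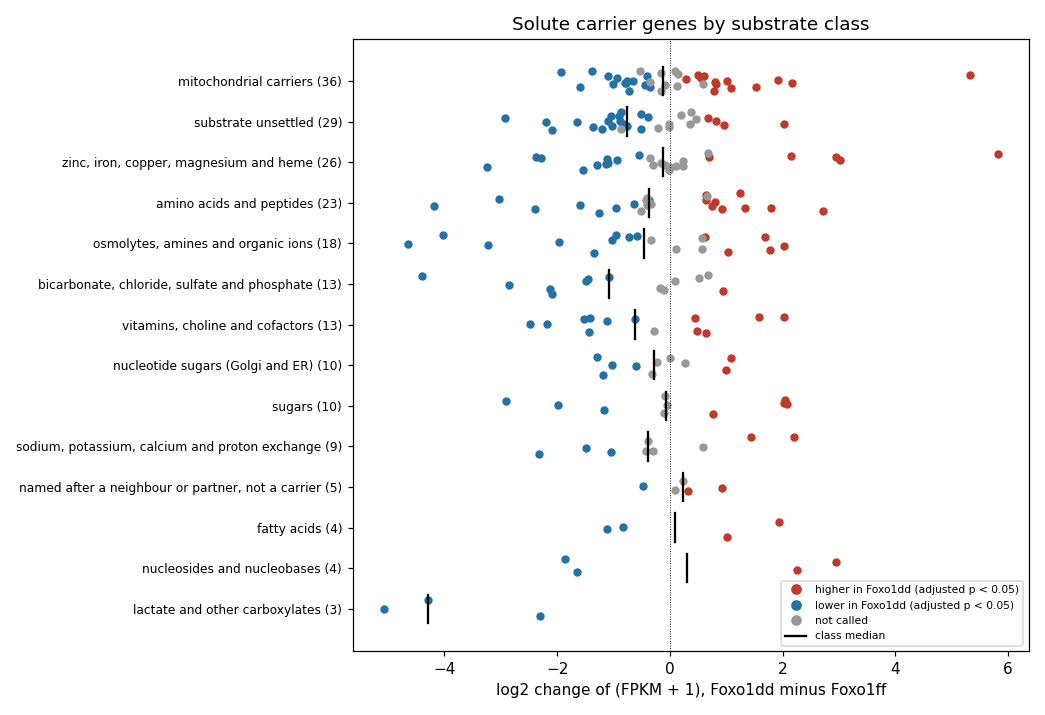
Log2 change of (FPKM + 1), Foxo1dd minus Foxo1ff, of each of the 203 genes (points) by substrate class, with the number of genes in brackets and the class median as a black bar. Red points were called higher, blue points lower and grey points not called. The widest span is in the metal carriers, from -3.25 to 5.82, and the 3 carboxylate carriers lie between -5.08 and -2.30.

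**Figure D2:**
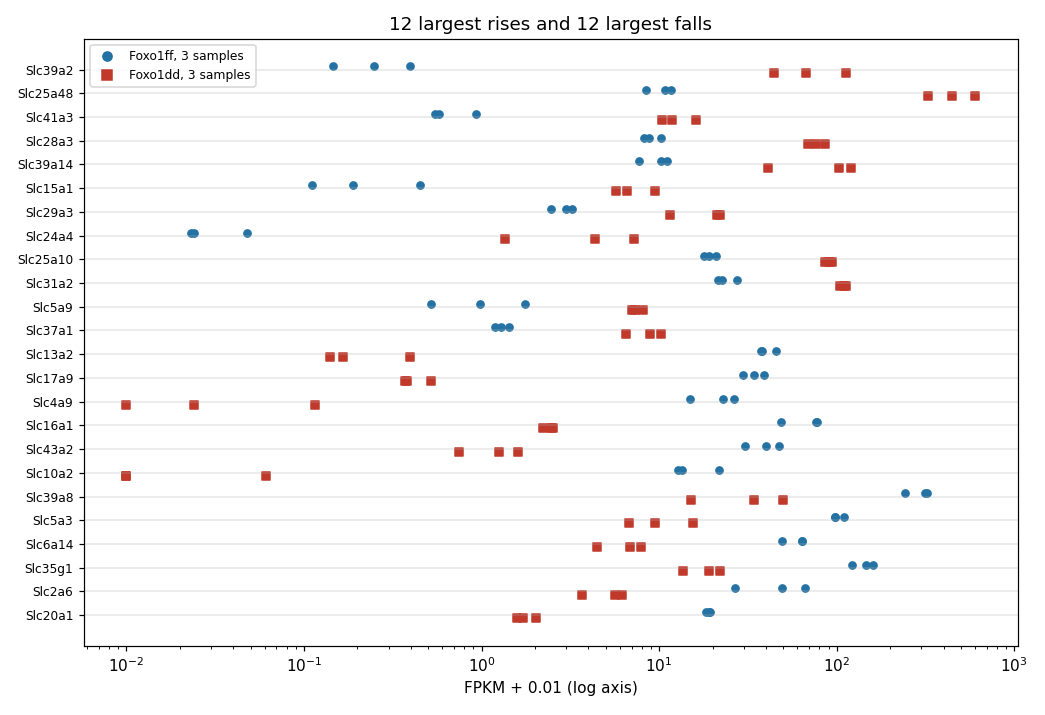
FPKM + 0.01 on a log axis in each of 3 Foxo1ff (blue circles) and 3 Foxo1dd (red squares) samples, for the 12 largest rises and the 12 largest falls among called genes whose groups do not overlap. By that rule no Foxo1dd sample lies within the Foxo1ff range.

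Promoter windows of 155 of the 203 genes were found in RefSeq (build GRCm38.p6), 204 windows of 300 bases from 250 before to 50 after a transcription start. They were searched on both strands for the FOXO core TGTTTAC, its shorter form and the E-box CACGTG. The FOXO core was in 2 windows, 0.980%, against 2.56% of the 11408 windows of tested genes and 3.65% of 32851 windows of all genes. The shorter core TGTTTA, which also matches within the longer one, was in 8.33% of the windows, against 8.44% and 13.4%. It was in 3.51% of windows of genes that rose, 10.2% of those that fell and 10.2% of those not called. The E-box was in 31 windows, 15.2%, against 10.3% and 7.15%. It was in 15.8% of windows of genes that rose, 13.3% of those that fell and 18.4% of those not called. A match is a description of letters, and no match says only that these letters are not in this window. The sequences shown are the pair that hold the FOXO core, of which Slc26a1 fell and Slc5a6 was not called, followed by E-box windows of the strongly lower Slc16a1, Slc39a8 and Slc20a1 and of the strongly higher Slc41a3. Capitals mark the FOXO core (here as its reverse complement GTAAACA) and the E-box. The windows lie at chr5:108674747-108675046 (minus strand), chr5:31048030-31048329 (minus strand), chr3:104638414-104638713 (plus strand), chr3:135825407-135825706 (plus strand), chr2:129198523-129198822 (plus strand) and chr6:90618996-90619295 (plus strand).
Slc26a1: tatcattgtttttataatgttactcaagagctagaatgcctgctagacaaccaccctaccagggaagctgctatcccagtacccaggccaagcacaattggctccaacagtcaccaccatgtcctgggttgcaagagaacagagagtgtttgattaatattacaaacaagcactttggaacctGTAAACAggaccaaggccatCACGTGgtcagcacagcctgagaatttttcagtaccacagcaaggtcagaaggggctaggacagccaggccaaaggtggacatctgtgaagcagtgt
Slc5a6: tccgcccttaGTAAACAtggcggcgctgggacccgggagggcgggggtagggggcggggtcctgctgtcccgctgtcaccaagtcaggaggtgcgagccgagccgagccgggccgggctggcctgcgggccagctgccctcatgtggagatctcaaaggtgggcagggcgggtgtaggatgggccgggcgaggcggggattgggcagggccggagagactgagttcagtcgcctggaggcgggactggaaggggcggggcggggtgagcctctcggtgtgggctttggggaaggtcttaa
Slc16a1: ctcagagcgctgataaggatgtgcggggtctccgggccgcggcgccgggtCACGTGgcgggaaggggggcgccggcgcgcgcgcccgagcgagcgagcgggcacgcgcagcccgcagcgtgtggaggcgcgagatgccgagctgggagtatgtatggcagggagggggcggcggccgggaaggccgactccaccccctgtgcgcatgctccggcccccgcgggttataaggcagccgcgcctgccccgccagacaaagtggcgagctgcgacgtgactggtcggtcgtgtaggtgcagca
Slc39a8: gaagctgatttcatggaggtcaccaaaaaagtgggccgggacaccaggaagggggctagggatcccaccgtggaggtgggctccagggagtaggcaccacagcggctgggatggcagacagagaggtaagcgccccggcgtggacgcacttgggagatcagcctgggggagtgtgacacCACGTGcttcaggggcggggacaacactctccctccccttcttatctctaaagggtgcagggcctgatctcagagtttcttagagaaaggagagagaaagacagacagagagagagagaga
Slc20a1: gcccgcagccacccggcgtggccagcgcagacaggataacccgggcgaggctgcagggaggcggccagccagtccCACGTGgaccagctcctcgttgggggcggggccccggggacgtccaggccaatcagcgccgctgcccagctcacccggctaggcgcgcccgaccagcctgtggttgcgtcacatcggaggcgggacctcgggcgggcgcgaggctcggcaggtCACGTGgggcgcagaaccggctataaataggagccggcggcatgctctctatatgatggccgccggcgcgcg
Slc41a3: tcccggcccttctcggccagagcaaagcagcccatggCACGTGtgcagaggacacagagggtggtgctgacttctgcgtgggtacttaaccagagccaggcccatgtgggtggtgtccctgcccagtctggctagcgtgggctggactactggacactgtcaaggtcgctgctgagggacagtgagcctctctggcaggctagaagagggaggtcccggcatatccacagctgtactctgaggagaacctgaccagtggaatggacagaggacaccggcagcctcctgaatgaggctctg

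In Slc26a1 the FOXO core begins 67 bases and the E-box 47 bases before the start. In Slc5a6 the core begins 240 bases before it. The E-box begins 200 bases before the start in Slc16a1, 71 in Slc39a8, and 213 in Slc41a3. Slc20a1 holds it at 175 and 22 bases before the start. The sequences of genes that fell and of genes that rose hold the same E-box letters.

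Metal carriers formed the class with the largest rise, and related genes for the same metal moved in opposite directions. Of 26 genes for zinc, iron, copper, magnesium and heme, 5 rose, 10 fell and 11 were not called, with a median log2 change of -0.11. The rises include 2 genes, Slc39a2 and Slc41a3, that reached the minimum in Foxo1dd alone. Slc39a2, a zinc importer (chromosome 14, 51892889 to 51896745, mm10), was at 0.135, 0.239 and 0.383 FPKM in the Foxo1ff samples against 66.9, 44.4 and 113 in Foxo1dd. Its log2 change was 5.82 ± 0.29 (SE, adjusted p = 9.33e-07), the largest rise of the 203 genes. Its value is uncertain because exons of Mettl17 overlap it in the same orientation. Slc39a14, an importer of zinc, iron and manganese, was at 11, 7.71 and 10.3 FPKM in the Foxo1ff samples against 103, 41.1 and 120 in Foxo1dd, with a log2 change of 2.94 ± 0.35 (SE, adjusted p = 0.000107) and the lowest Foxo1dd value in Foxo1dd 2. Its close relative Slc39a8, which carries the same metals, went the other way, at 244, 321 and 316 FPKM in the Foxo1ff samples against 34.4, 15.1 and 50.1 in Foxo1dd. That is a log2 change of -3.25 ± 0.35 (SE, adjusted p = 6.41e-05), and the lowest Foxo1dd value was again in Foxo1dd 2.

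Other zinc importers differed less. Slc39a4, the importer known for zinc uptake in the gut, had the highest level of the class and was not called, at 936, 471 and 838 FPKM in the Foxo1ff samples against 818, 662 and 1123 in Foxo1dd (adjusted p = 0.486). Its groups overlap, and the sign of its change (0.24) turned without Foxo1ff replicate 2 (-0.06). Slc39a6, an estrogen-regulated importer, fell from a mean of 148 ± 26.7 to 29.1 ± 3.36 FPKM, and Slc39a7, which releases zinc from the endoplasmic reticulum and overlaps exons of Gm20427, from 154 ± 11.9 to 70.3 ± 4.1 (SD, n = 3 each). Slc39a1 rose from 89.1 ± 2.72 to 145 ± 15.6 FPKM and Slc39a11 had a log2 change of -0.54. Slc39a3, Slc39a9, Slc39a10 and Slc39a13 were not called. Among the 6 zinc exporters of the Slc30 family, 0 rose and 3 fell: Slc30a5 and Slc30a7, which load zinc into the secretory pathway, and Slc30a1, the exporter of the cell surface, with log2 changes of -1.30, -1.10 and -0.94. Slc30a4, Slc30a6 and Slc30a9 were not called, with changes of 0.23, 0.01 and -0.30.

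Outside the Slc39 family, only the magnesium carriers of this class included both a rise and a fall. The copper, iron and heme carriers included called and uncalled genes. Slc31a2, a copper carrier of internal membranes, was at 21.4, 22.7 and 27.6 FPKM in the Foxo1ff samples against 109.8, 113 and 104 in Foxo1dd, which gave a log2 change of 2.15 ± 0.13 (SE, adjusted p = 1.9e-06). The copper importer Slc31a1 had means of 48.3 ± 3.37 FPKM (SD) without Cre and 46.7 ± 11.9 with it and was not called. Slc41a3, of the magnesium carrier family, was at 0.566, 0.923 and 0.537 FPKM in the Foxo1ff samples against 10.4, 11.8 and 16.1 in Foxo1dd, which gave a log2 change of 3.02 ± 0.20 (SE, adjusted p = 3.93e-06). Its relative Slc41a2 fell (log2 change -1.54 ± 0.18 SE, adjusted p = 9.81e-05), and Slc41a1, with means of 15 ± 2.75 FPKM (SD) without Cre and 13.3 ± 1.4 with it, was not called. Slc11a2, which imports ferrous iron, was at 18.5, 19.5 and 16.5 FPKM in the Foxo1ff samples against 2.94, 1.85 and 3.56 in Foxo1dd, which gave a log2 change of -2.37 ± 0.19 (SE, adjusted p = 1.2e-05). The heme carrier Slc48a1 fell 2.22-fold, while the iron exporter Slc40a1, at 4.44, 7.66 and 6.35 FPKM in the Foxo1ff samples against 8.66, 5.86 and 20.6 in Foxo1dd, overlapped between the groups. Beside these, the transferrin receptor Tfrc, by which cells take up bound iron, was at 64.2, 73.1 and 84.5 FPKM in the Foxo1ff samples against 6.22, 5.45 and 6.47 in Foxo1dd.

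**Figure D3:**
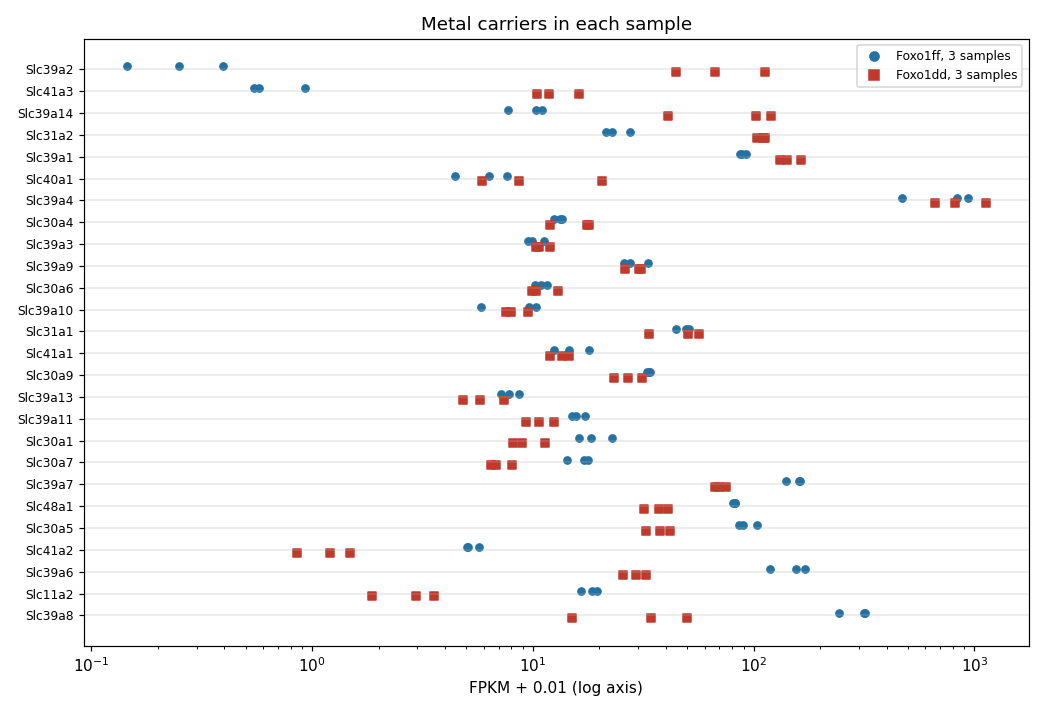
FPKM + 0.01 on a log axis of the 26 carriers of zinc, iron, copper, magnesium and heme in each Foxo1ff (blue circles) and Foxo1dd (red squares) sample, ordered by log2 change. Slc39a2 stands below 1 FPKM in Foxo1ff and above 40 FPKM in Foxo1dd, Slc39a8 has the reverse order with no overlap, and Slc39a4 overlaps at the highest level.

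All 3 carriers of lactate and other carboxylates in the set were lower, but 2 of them, Slc13a2 and Slc5a8, reached the minimum of 1 FPKM in Foxo1ff alone and so could enter the set only as lower genes. Slc16a1, which carries lactate and pyruvate together with protons, was at 48.5, 77.2 and 76.5 FPKM in the Foxo1ff samples against 2.21, 2.45 and 2.53 in Foxo1dd. That gave a log2 change of -4.30 ± 0.19 (SE, adjusted p = 5.39e-07). Slc13a2, a sodium-coupled carrier of succinate and citrate, was at 45.3, 37.5 and 38.2 FPKM in the Foxo1ff samples against 0.156, 0.386 and 0.131 in Foxo1dd. Its log2 change was -5.08 ± 0.16 (SE, adjusted p = 1.21e-07), the largest fall of the 203 genes on the log2(FPKM + 1) scale. As ratios of mean FPKM, Slc10a2 and Slc4a9 fell further, 939.8-fold and 536-fold against 179.8-fold for Slc13a2. Slc13a2 lies opposite exons of Slc13a2os, and without strand the reads of a gene and its antisense partner cannot be told apart. Slc5a8, a sodium-coupled carrier of short monocarboxylates, was at 5.38, 3.6 and 3.57 FPKM in the Foxo1ff samples against 0.005, 0 and 0.11 in Foxo1dd and fell by 2.30 log2. The 3 Foxo1dd values of each gene lay below the Foxo1ff range. The direction does not extend to the carriers left out of this set, since Slc16a3 was lower and the citrate importer Slc13a5 was higher, at 0.069, 0.019 and 0.788 FPKM in the Foxo1ff samples against 154, 89.3 and 154 in Foxo1dd. The partner proteins that bring lactate carriers to the cell surface were lower as well, Bsg with a log2 change of -0.78 and Emb with -1.18.

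Amino acid and peptide carriers divided, with 9 of 23 higher, 8 lower and 6 not called (median log2 change -0.37). Both peptide importers of the cell surface rose. Of these, Slc15a1 reached the minimum of 1 FPKM in Foxo1dd alone and so could enter the set only as a higher gene. Slc15a1 was at 0.101, 0.442 and 0.178 FPKM in the Foxo1ff samples against 5.74, 6.61 and 9.47 in Foxo1dd, which gave a log2 change of 2.72 ± 0.22 (SE, adjusted p = 1.08e-05), and Slc15a2 was at 12.3, 6.34 and 12.8 FPKM in the Foxo1ff samples against 46.4, 27 and 41.3 in Foxo1dd, which gave a log2 change of 1.79 ± 0.28 (SE, adjusted p = 0.000512). Slc15a4, a lysosomal carrier of peptides and histidine, had a log2 change of -0.37 (adjusted p = 0.0342), a call lost in 8 of 14 alternatives. Slc1a1, an importer of glutamate and aspartate, had the highest level of the class and rose from a mean of 377 ± 46.2 to 655 ± 43.9 FPKM. Slc38a2, which imports small neutral amino acids, was at 97, 88.8 and 90.3 FPKM in the Foxo1ff samples against 231, 133 and 339 in Foxo1dd, with all 3 Foxo1dd samples above Foxo1ff. Slc7a5 and Slc3a2, the light and heavy chains of a single exchanger of large neutral amino acids, rose by 0.65 and 0.75 log2. Slc1a4, which exchanges alanine, serine and cysteine, rose 2.77-fold, Slc7a7 2.10-fold and Slc7a4 1.86-fold.

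On the log2(FPKM + 1) scale the largest falls in this class exceeded its largest rise, that of Slc15a1, a gene near 0 in Foxo1ff. That scale understates the change of a low gene. As ratios of mean FPKM, Slc15a1 rose 30.3-fold, while Slc43a2 fell 32.8-fold and Slc6a14 9.22-fold. Slc43a2, a carrier of large neutral amino acids opposite exons of Gm45606, was at 40, 47.2 and 30.3 FPKM in the Foxo1ff samples against 1.6, 0.737 and 1.25 in Foxo1dd, which gave a log2 change of -4.19 ± 0.21 (SE, adjusted p = 9.31e-07). Slc6a14, a concentrating importer of neutral and cationic amino acids, was at 49.5, 63.9 and 64.2 FPKM in the Foxo1ff samples against 7.94, 4.47 and 6.84 in Foxo1dd, which gave a log2 change of -3.04 ± 0.20 (SE, adjusted p = 3.58e-06). Slc7a6, which pairs with Slc3a2 to exchange cationic for neutral amino acids, was at 12.3, 11.1 and 11.5 FPKM in the Foxo1ff samples against 1.79, 1.04 and 1.45 in Foxo1dd, and its relative Slc7a7, with the same partner, went the other way, at 4.78, 5.54 and 4.81 FPKM in the Foxo1ff samples against 9.5, 12.6 and 9.76 in Foxo1dd. Slc1a5, the glutamine exchanger, was at 166, 181 and 136 FPKM in the Foxo1ff samples against 89.4, 75.7 and 80.7 in Foxo1dd, which gave a log2 change of -0.96 ± 0.14 (SE, adjusted p = 0.00033). The glycine importer Slc6a9 and the arginine importer Slc7a1 fell 3.84-fold and 2.47-fold, and Slc38a10 1.57-fold. Slc6a15, Slc6a17, Slc36a1, Slc38a6, Slc38a7 and Slc38a9 were not called, with log2 changes from -0.51 to 0.66.

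**Figure D4:**
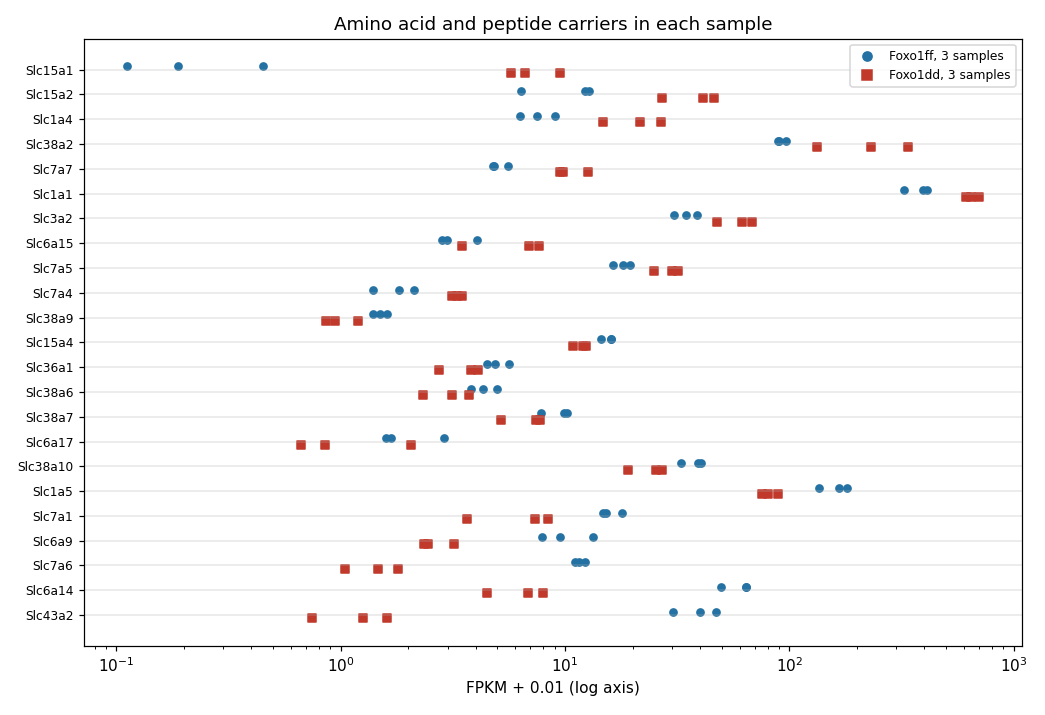
FPKM + 0.01 on a log axis of the 23 amino acid and peptide carriers in each Foxo1ff (blue circles) and Foxo1dd (red squares) sample, ordered by log2 change. Slc15a1 is below 0.5 FPKM in Foxo1ff and above 5 FPKM in Foxo1dd, and Slc43a2, Slc6a14 and Slc7a6 lie at the other end with no overlap.

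Mitochondrial carriers of the Slc25 family, which move metabolites across the inner mitochondrial membrane, were the largest class, with 13 of 36 higher, 14 lower and 9 not called (median log2 change -0.12). Slc25a48, a mitochondrial carrier linked to choline, was at 10.8, 8.39 and 11.6 FPKM in the Foxo1ff samples against 449, 326 and 602 in Foxo1dd, which gave a log2 change of 5.32 ± 0.22 (SE, adjusted p = 3.32e-07). In Foxo1dd it held the highest mean of the family, ahead of Slc25a11, Slc25a5 and Slc25a3. Carriers of di- and tricarboxylates were among the rises. Slc25a10, which exchanges malate and succinate for phosphate, was at 19.1, 17.9 and 20.9 FPKM in the Foxo1ff samples against 85.8, 90.3 and 94.1 in Foxo1dd (log2 change 2.17 ± 0.12 SE, adjusted p = 1.15e-06). Slc25a1, the citrate exporter, was at 35.3, 34.7 and 35.8 FPKM in the Foxo1ff samples against 126, 149.7 and 134 in Foxo1dd (log2 change 1.92 ± 0.11 SE, adjusted p = 1.85e-06). Slc25a11, which exchanges oxoglutarate for malate, was at 127, 134 and 148 FPKM in the Foxo1ff samples against 264, 305 and 304 in Foxo1dd (log2 change 1.09 ± 0.12 SE, adjusted p = 6.41e-05). The spread within groups was small beside these differences. Exons of Gm11788 and Rnf167 lie opposite Slc25a10 and Slc25a11.

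Cofactor carriers among the mitochondrial rises were Slc25a16, 1.80-fold, and Slc25a42, 1.60-fold, both tied to coenzyme A, and Slc25a39 (glutathione), 1.22-fold. The calls of Slc25a42 and Slc25a39 were lost in 4 and 8 of 14 alternatives. Carriers of ATP-magnesium and phosphate rose, Slc25a25 2.12-fold, Slc25a24 1.78-fold and Slc25a23 1.41-fold. The groups of Slc25a23 overlap, and its call was lost in 7 of 14 alternatives. The calcium-regulated aspartate and glutamate exchanger Slc25a12 rose 1.61-fold, while its relative Slc25a13, with means of 26.3 ± 2.61 FPKM (SD) without Cre and 28.4 ± 5.52 with it, was not called. The heme-linked glycine carrier Slc25a38 rose 1.79-fold.

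The carriers that supply ATP synthesis were lower by small amounts. Slc25a5 and Slc25a4, which exchange ADP for ATP and are similar in sequence, had log2 changes of -0.76 ± 0.17 (SE, adjusted p = 0.00373) and -0.35 ± 0.13 (SE, adjusted p = 0.0393), and the phosphate carrier Slc25a3 had -0.44 ± 0.14 (SE, adjusted p = 0.0235). The calls of Slc25a4 and Slc25a3 were lost in 10 and 5 of 14 alternatives, among them median-of-ratios scaling (adjusted p = 0.178 and 0.0666). Both mitochondrial iron importers fell, Slc25a37 2.24-fold and Slc25a28 1.92-fold. Slc25a15, which carries ornithine, was at 12.5, 12.5 and 14.5 FPKM in the Foxo1ff samples against 5.11, 3.65 and 4.47 in Foxo1dd, which gave a log2 change of -1.39 ± 0.16 (SE, adjusted p = 8.43e-05). The pyrimidine nucleotide carriers Slc25a33 and Slc25a36 fell by 0.72 and 0.79 log2, and the glutamate carrier Slc25a22 by 0.66. Slc25a35 and Slc25a45 fell 6.72-fold and 3.29-fold. Slc25a35, which reached the minimum in Foxo1ff alone, was at 4.19, 9.17 and 6.5 FPKM in the Foxo1ff samples against 0.567, 1.75 and 0.644 in Foxo1dd. The carnitine carrier Slc25a20, the peroxisomal carrier Slc25a17, the folate and FAD carrier Slc25a32, the S-adenosylmethionine carrier Slc25a26 and the NAD carrier Slc25a51 were not called.

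**Figure D5:**
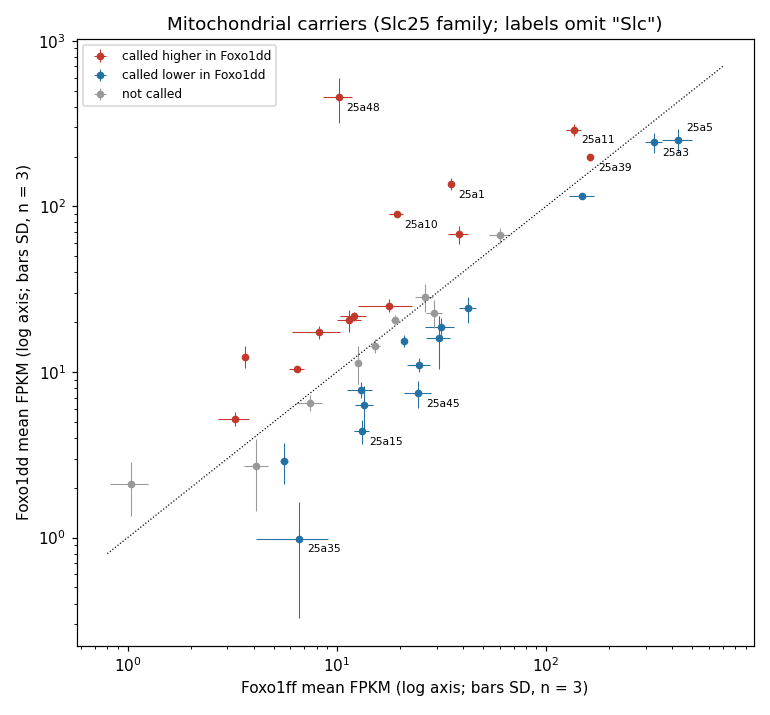
Mean FPKM in Foxo1dd against mean FPKM in Foxo1ff, both on log axes with SD bars (n = 3 each), for the 36 Slc25 genes. The dotted line marks equal means. Slc25a48, Slc25a1, Slc25a10 and Slc25a11 lie above the line, and Slc25a35, Slc25a45 and Slc25a15 lie below it.

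Carriers of osmolytes, amines and organic ions numbered 18, of which 5 rose, 9 fell and 4 were not called. Of the falls 5, and of the rises 1, were genes that reached the minimum in 1 group alone, which left 4 rises and 4 falls among the genes that reached it in both. The importers of organic osmolytes went in opposite directions. Slc6a6, the taurine importer, was at 90.1, 62.5 and 62.5 FPKM in the Foxo1ff samples against 246, 187 and 309 in Foxo1dd, which gave a log2 change of 1.77 ± 0.21 (SE, adjusted p = 9.89e-05). Slc5a3, the sodium-coupled importer of myo-inositol, was at 109.6, 97.7 and 97.7 FPKM in the Foxo1ff samples against 15.5, 6.78 and 9.43 in Foxo1dd, which gave a log2 change of -3.22 ± 0.24 (SE, adjusted p = 7.07e-06). The Slc5a3 value is uncertain because exons of Mrps6 overlap it in the same orientation. Slc5a11, another inositol importer, was at 289, 205 and 181 FPKM in the Foxo1ff samples against 113, 97.8 and 132 in Foxo1dd and fell 1.97-fold. The carnitine importer Slc22a5 and the related Slc22a4 rose 3.54-fold and 1.58-fold, while Slc22a21, a similar gene whose reads may be split with these, was not called.

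Slc17a9, which loads ATP into vesicles, was at 34.3, 39 and 29.6 FPKM in the Foxo1ff samples against 0.36, 0.369 and 0.509 in Foxo1dd, which gave a log2 change of -4.64 ± 0.16 (SE, adjusted p = 1.72e-07). Slc10a2, the sodium-coupled bile acid importer of the gut, was at 13.4, 21.8 and 12.7 FPKM in the Foxo1ff samples against 0.051, 0 and 0 in Foxo1dd, which gave a log2 change of -4.02 ± 0.22 (SE, adjusted p = 1.31e-06). Slc17a4, an organic anion carrier, was at 2.93, 3.54 and 2.36 FPKM in the Foxo1ff samples against 0, 0 and 0 in Foxo1dd, listed at 0 in every Foxo1dd sample. Slc51a, a subunit of a bile acid and steroid exporter, was at 4.68, 0.788 and 2.9 FPKM in the Foxo1ff samples against 0.47, 0 and 0.64 in Foxo1dd, and its call (adjusted p = 0.0173) was lost in 3 of 14 alternatives. The urea carrier Slc14a1 rose, at 0.006, 0 and 0.127 FPKM in the Foxo1ff samples against 8.55, 1.08 and 2.84 in Foxo1dd, with wide spread among the Foxo1dd samples. Among amine carriers, the serotonin importer Slc6a4 and the vesicular carrier Slc18a1 fell 2.72-fold and 2.89-fold, the polyamine carrier Slc18b1 rose 2.28-fold, and Slc18a2 was not called. The sialic acid carrier Slc17a5 fell 1.55-fold, and the creatine carriers Slc6a8 and Slc16a12 were not called (adjusted p = 0.0673 and 0.0525).

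Of 13 carriers of bicarbonate, chloride, sulfate and phosphate, 1 rose, 7 fell and 5 were not called. The falls include 4 genes that reached the minimum in Foxo1ff alone (Slc4a9, Slc34a2, Slc26a1 and Slc4a3), and among the genes that reached it in both groups 1 rose, 3 fell and 4 were not called. Slc4a9, an anion exchanger, was at 26.5, 23 and 14.9 FPKM in the Foxo1ff samples against 0.106, 0 and 0.014 in Foxo1dd, which gave a log2 change of -4.40 ± 0.22 (SE, adjusted p = 9.18e-07). The gene that rose was Slc4a2, the housekeeping chloride and bicarbonate exchanger, at 35.7, 31.6 and 29.7 FPKM in the Foxo1ff samples against 64.3, 61.9 and 63.9 in Foxo1dd. Slc4a3, of the same exchanger branch, fell 9.83-fold. The 3 phosphate importers fell. Slc20a1 was at 19.3, 18.4 and 19.2 FPKM in the Foxo1ff samples against 1.71, 1.58 and 2.02 in Foxo1dd (log2 change -2.85 ± 0.14 SE, adjusted p = 9.33e-07), and Slc20a2 at 47, 39.8 and 35.4 FPKM in the Foxo1ff samples against 14.8, 12.8 and 14.9 in Foxo1dd (log2 change -1.45 ± 0.14 SE, adjusted p = 3.36e-05). Slc34a2 was at 5.45, 5.56 and 10.3 FPKM in the Foxo1ff samples against 1.18, 0.058 and 1.56 in Foxo1dd, lowest in Foxo1dd 2. Of the sulfate carriers, Slc26a1 and Slc26a11 fell 19.4-fold and 2.38-fold, and Slc26a2, at 3.42, 2.59 and 2.55 FPKM in the Foxo1ff samples against 7.52, 2.02 and 8.03 in Foxo1dd, was not called. Slc4a7, Slc4a8, Slc26a9 and the iodide importer Slc5a5 were not called. The sign of the Slc4a7 change (-0.18) turned without Foxo1dd replicate 2 (0.02), and that of Slc4a8 (-0.11) turned under quantile normalization (0.07) and without Foxo1dd replicate 3 (0.03).

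Of 9 exchangers and cotransporters of sodium, potassium, calcium and protons, 2 rose, 3 fell and 4 were not called. Of the rises 1, Slc24a4, reached the minimum in Foxo1dd alone. Slc24a4, which extrudes calcium in exchange for sodium, was at 0.014, 0.013 and 0.038 FPKM in the Foxo1ff samples against 4.33, 1.34 and 7.25 in Foxo1dd, which gave a log2 change of 2.20 ± 0.40 (SE, adjusted p = 0.00132). Slc8b1, the mitochondrial exchanger of sodium and calcium, was at 20.5, 20.8 and 18.4 FPKM in the Foxo1ff samples against 3.63, 2.34 and 3.65 in Foxo1dd, which gave a log2 change of -2.33 ± 0.17 (SE, adjusted p = 6.72e-06). Among potassium and chloride cotransporters, Slc12a7 was at 6.77, 4.74 and 5.11 FPKM in the Foxo1ff samples against 17.9, 15.5 and 16.6 in Foxo1dd and rose, and Slc12a4 was not called. Of the sodium and proton exchangers, Slc9a2, of the epithelial surface, was at 21.1, 25.9 and 21.9 FPKM in the Foxo1ff samples against 8.25, 7.13 and 7.33 in Foxo1dd and fell. Slc9a8 was not called.

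Vitamin, choline and cofactor carriers moved in both directions, also within the folate and choline carriers. Of 13, 5 were higher, 7 lower and 1 not called (median log2 change -0.61). The rise of Slc46a3 and the fall of Slc19a2 are of genes that reached the minimum in Foxo1dd alone and in Foxo1ff alone. The folate importer Slc19a1 was at 20.8, 15.3 and 17 FPKM in the Foxo1ff samples against 2.91, 2.22 and 1.9 in Foxo1dd, which gave a log2 change of -2.49 ± 0.18 (SE, adjusted p = 6.21e-06). The other folate importer, Slc46a1, which is driven by protons, rose 1.63-fold. The thiamine importer Slc19a2 was at 5.17, 7.89 and 8 FPKM in the Foxo1ff samples against 0.784, 0.591 and 0.87 in Foxo1dd, which gave a log2 change of -2.18 ± 0.20 (SE, adjusted p = 2.48e-05). Both riboflavin importers rose, Slc52a2 1.42-fold and Slc52a3 from 5.79, 6.86 and 9.45 FPKM in the Foxo1ff samples against 55.3, 13.4 and 44.4 in Foxo1dd, with the Foxo1dd 2 value nearest to the Foxo1ff range. Slc23a1, the vitamin C importer, was at 241, 247 and 208 FPKM in the Foxo1ff samples against 94.6, 64.9 and 98.9 in Foxo1dd, which gave a log2 change of -1.44 ± 0.17 (SE, adjusted p = 0.000102). Of the choline carrier family, Slc44a1, Slc44a2 and Slc44a4 fell 2.82-fold, 1.53-fold and 2.18-fold, and Slc44a3 rose 1.40-fold, a call lost in 7 of 14 alternatives. Slc33a1, which brings acetyl-CoA into the endoplasmic reticulum, fell 2.98-fold. The lysosomal carrier Slc46a3 was at 0.133, 0.222 and 0.104 FPKM in the Foxo1ff samples against 1.73, 3.49 and 2.35 in Foxo1dd and rose, and the multivitamin importer Slc5a6 was not called.

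Of the 4 nucleoside carriers 2 rose and 2 fell. Slc29a1, 1 of the lower genes, reached the minimum of 1 FPKM in Foxo1ff alone and so could enter the set only as a lower gene. The concentrating importer Slc28a3, opposite exons of Gm3131, was at 10.3, 8.22 and 8.71 FPKM in the Foxo1ff samples against 76.2, 68.6 and 85.7 in Foxo1dd, which gave a log2 change of 2.95 ± 0.14 (SE, adjusted p = 6.65e-07). Slc29a3, the equilibrative carrier of lysosomes, was at 3.24, 2.98 and 2.46 FPKM in the Foxo1ff samples against 22.1, 11.5 and 21.2 in Foxo1dd, which gave a log2 change of 2.26 ± 0.24 (SE, adjusted p = 5.52e-05). The equilibrative carriers of the cell surface were lower. Slc29a1 was at 2.99, 4.61 and 4.59 FPKM in the Foxo1ff samples against 0.839, 0.184 and 0.865 in Foxo1dd (log2 change -1.65 ± 0.24 SE, adjusted p = 0.000408) and Slc29a2 at 7.07, 7.5 and 4.96 FPKM in the Foxo1ff samples against 2.17, 0.459 and 0.856 in Foxo1dd (log2 change -1.86 ± 0.29 SE, adjusted p = 0.000562). The 4 fatty acid carriers also split, with Slc27a3 and Slc27a1 4.60-fold and 2.22-fold higher and Slc27a2 and Slc27a4 2.32-fold and 1.83-fold lower.

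Among 10 sugar and sugar phosphate carriers, 4 rose, 3 fell and 3 were not called (median log2 change -0.07). The falls include Slc2a9, which reached the minimum in Foxo1ff alone. Slc2a12, a glucose carrier opposite exons of Tbpl1, was at 68.6, 48.3 and 44.9 FPKM in the Foxo1ff samples against 178, 229.7 and 253 in Foxo1dd, which gave a log2 change of 2.02 ± 0.19 (SE, adjusted p = 2.6e-05), and had the highest level of the class. Slc5a9, a sodium-coupled carrier of mannose and other sugars, was at 0.507, 0.965 and 1.75 FPKM in the Foxo1ff samples against 7.32, 7.01 and 8.07 in Foxo1dd, which gave a log2 change of 2.07 ± 0.23 (SE, adjusted p = 7.11e-05). Slc37a1, of the sugar phosphate family, was at 1.28, 1.18 and 1.41 FPKM in the Foxo1ff samples against 10.2, 6.5 and 8.92 in Foxo1dd and rose 6.61-fold. Slc50a1 rose 1.72-fold. Falling genes were Slc2a6, a hexose carrier of internal membranes, at 26.6, 49.3 and 66.1 FPKM in the Foxo1ff samples against 3.68, 6.21 and 5.61 in Foxo1dd, and the urate carrier Slc2a9, at 2.77, 4.65 and 2.45 FPKM in the Foxo1ff samples against 0.08, 0 and 0.104 in Foxo1dd. The glucose-6-phosphate carrier Slc37a4, of the endoplasmic reticulum, fell 2.33-fold. Slc5a1, the sodium-coupled glucose importer, was at 9.13, 10.8 and 14.7 FPKM in the Foxo1ff samples against 8.44, 6.92 and 19.1 in Foxo1dd, with overlapping groups.

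The class of nucleotide sugar carriers, which feed glycosylation in the Golgi and endoplasmic reticulum, was set by Slc35 subfamily. Not all of its genes carry nucleotide sugars, and Slc35b1, Slc35b2 and Slc35b3 are in it by subfamily alone. Changes in the class ran from -1.30 (Slc35b1) to 1.08 log2. Of 10, 2 rose, 4 fell and 4 were not called. The GDP-fucose carrier Slc35c1 was at 42.2, 42.3 and 40.5 FPKM in the Foxo1ff samples against 19.8, 15.4 and 18.3 in Foxo1dd, and Slc35b1, of the endoplasmic reticulum, was at 64.2, 70.5 and 69.2 FPKM in the Foxo1ff samples against 28.9, 26.6 and 25.5 in Foxo1dd, both lower. The UDP-galactose carrier Slc35a2 fell 1.58-fold. Slc35d1 and Slc35d2 rose 2.39-fold and 2.19-fold. The CMP-sialic acid carrier Slc35a1, with means of 28.2 ± 2.69 FPKM (SD) without Cre and 24 ± 3.33 with it, was not called, and neither were Slc35a3, Slc35b2 and Slc35b3.

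A further 29 genes carry an Slc symbol with no substrate settled for this grouping, and of these 4 rose, 17 fell and 8 were not called (median log2 change -0.76). Slc35g1 was at 122, 147 and 161 FPKM in the Foxo1ff samples against 22, 13.7 and 19 in Foxo1dd, which gave a log2 change of -2.92 ± 0.18 (SE, adjusted p = 2.6e-06). Slc35f2 and Slc12a8 fell 6.22-fold and 27.3-fold, and the latter reached the minimum in Foxo1ff alone. Slc35f5, with a log2 change of -0.52 ± 0.20 (SE, adjusted p = 0.047), lost its call in 7 of 14 alternatives. The monocarboxylate family members Slc16a11 and Slc16a13 fell 2.13-fold and 3.24-fold. Slc22a18, at 2.29, 2.22 and 2.77 FPKM in the Foxo1ff samples against 14.7, 11 and 13.2 in Foxo1dd, was the largest rise among them. The remaining 5 members are not carriers, being named after a partner or neighbour. The scaffold Slc9a3r2, which tethers exchangers to the cell cortex, rose 1.95-fold, Slc9a3r1 1.26-fold, and Slc7a6os fell 1.40-fold. The calls of Slc9a3r1 and Slc7a6os were each lost in 5 of 14 alternatives. Slc4a1ap and the pseudogene Slc2a4rg-ps were not called.

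Carriers without an Slc symbol also moved in both directions. Of 33 listed, 25 were tested, of which 10 rose and 9 fell (median log2 change 0.11). Flvcr1 and Flvcr2, related carriers of choline and heme, were at 14.8, 12.1 and 10.8 FPKM in the Foxo1ff samples against 1.82, 2.08 and 1.37 in Foxo1dd and at 0.77, 0.396 and 1.22 FPKM in the Foxo1ff samples against 32.7, 37.7 and 29.9 in Foxo1dd. Slco4a1, an organic anion carrier, was at 29.6, 42.2 and 33.9 FPKM in the Foxo1ff samples against 0.55, 0.122 and 0.546 in Foxo1dd, and its relative Slco4c1 was at 0.272, 0.22 and 0.146 FPKM in the Foxo1ff samples against 3.67, 3.1 and 6.38 in Foxo1dd. Ank, which exports pyrophosphate and ATP, was at 3.25, 2.82 and 3.68 FPKM in the Foxo1ff samples against 74.7, 76.3 and 88.5 in Foxo1dd. Of 25 partners and drivers of carriers, 21 were tested, of which 3 rose and 8 fell. The kinase Sgk1, which acts on many carriers, had a log2 change of -4.24. Tfrc, Bsg and Emb are on this list as well. These 2 lists were written with earlier results of these data known.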

How the data were processed

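RNA of laser-captured uterine luminal epithelium was sequenced in 3 Foxo1ff and 3 Foxo1dd samples. The deposited table holds FPKM values per gene and sample; the authors' processing notes name STAR 2.5.2b, Subread, featureCounts 1.5.0-p1, edgeR 3.28.0, DESeq2 1.12.4 and build mm10, without their roles, and strand use is not given in the sources used here. No count model was used, because FPKM is a normalized unit. The 11427 genes whose average reached 1 FPKM were fitted with limma 3.58.1 in R 4.3.3 on log2(FPKM + 1), with a trended variance and Benjamini-Hochberg adjustment over all of them, and called at an adjusted p under 0.05. Log2 changes are on that scale, where the change of a low gene is understated, while fold values are ratios of mean FPKM. The script was tested on simulated data. Genes were named by a rule that ranked changes by log2 change. It took the 12 that rose most and the 12 that fell most among called genes with groups apart. In each substrate class it took the 3 highest and the 3 most changed. Other genes were chosen after their values were seen. The members, substrate classes, lists and motifs were chosen with earlier results of these data known. Slc2a4rg-ps was moved from the sugar carriers to the genes that are not carriers after the table was seen. Gene positions came from GENCODE M21, which shows 11 of the 203 genes with same-strand exon overlap and 51 with exons opposite; reads of such genes are uncertain. Alternatives covered the pseudocount, the minimum, the scaling, the variance model, a replicate block and each sample left out. Some genes are not reported here by name.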

Additional observations from a re-analysis of the deposited data

How the results depend on the processing

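Over 14 alternatives, the carriers called higher numbered 49 to 64 and those called lower 71 to 91 (50 to 63 and 79 to 91 with 1 sample left out). Of 146 called genes, 128 kept the call in every alternative that tested them, 18 lost it in at least 1, and 0 reversed, while 19 uncalled genes gained a call. With a minimum mean of 5 FPKM, which drops 50 genes, the counts were 49 and 71, with 2 sugar carriers higher, and 5 osmolyte, amine and organic ion carriers, 4 bicarbonate, chloride, sulfate and phosphate carriers and 0 nucleoside carriers lower. Among the genes that are not carriers, 0 were lower under quantile normalization and 1 was higher without a variance trend. With samples left out in turn these genes gave 1 to 2 higher and 0 to 1 lower calls. The sodium, potassium, calcium and proton class gave 3 to 5 lower calls, the most without Foxo1dd replicate 1, and the bicarbonate class 1 to 2 higher, the most without Foxo1dd replicate 2. Of the 57 uncalled genes, 19 changed sign in at least 1 alternative, among them Slc39a10 (in 6), Slc5a1 (5), Slc39a9 (4), Slc31a1, Slc35b3 and Slc26a9 (3 each), Slc30a6 (2), and Slc25a32 and Slc4a1ap (1 each). Those among the genes named by the rule were Slc4a7 (-0.34 to 0.02 with samples left out, the last without Foxo1dd replicate 2), Slc39a4 (-0.06 to 0.43, the first without Foxo1ff replicate 2) and Slc4a8 (-0.27 to 0.03, the last without Foxo1dd replicate 3, and 0.07 under quantile normalization). The cause was not tested. Same-numbered samples correlated at 0.123, 0.107 and -0.133 in their deviations from the group means, and different-numbered samples at -0.207 to 0.15. These values do not show a pairing by number, and with 3 samples per group they cannot exclude one. A replicate block gave 56 higher and 89 lower, and 1 higher among the genes that are not carriers. Depth is known only by an estimate, which limits what can be said of genes near 0.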
